A study of Mus musculus with 4 samples.

Results

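Matrix proteases open the extracellular matrix around a blood vessel, and their inhibitors hold that activity back. The genes described here are 10 of the 46517 genes counted, chosen by name: the 5 proteases *Mmp2*, *Mmp14*, *Adamts1*, *Adamts4* and *Adamts9*, and the 5 inhibitors *Timp1*, *Timp2*, *Timp3*, *Timp4* and *Reck*. All 10 were read in blood vascular endothelial cells (BECs) sorted from mouse ear dermis. The question was how their levels, and the share of cells in which they were read, differ between artery-like, capillary-like and vein-like cells.

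*Mmp2* encodes a secreted gelatinase that also cuts basement membrane collagen, and *Mmp14* encodes the membrane-bound enzyme that activates it. The ADAMTS proteases are secreted, and *Adamts1*, *Adamts4* and *Adamts9* cut large proteoglycans such as versican and aggrecan. The TIMP proteins are small secreted inhibitors that block the active site of metalloproteases. TIMP2 has a second role, since it bridges MMP14 and the MMP2 precursor on the cell surface during activation. TIMP3 binds to the matrix and inhibits ADAM and ADAMTS enzymes as well, while RECK is an inhibitor anchored in the cell membrane.

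All 5 enzymes hold a zinc ion in the active site with 3 histidines, and this shared stretch is what places them in one class. The coding stretch was read from GENCODE vM21 transcripts (mm10), 5′ to 3′ on the coding strand, with the 3 histidine codons in capitals.
Mmp2: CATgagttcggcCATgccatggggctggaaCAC
Mmp14: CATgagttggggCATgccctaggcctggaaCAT
Adamts1: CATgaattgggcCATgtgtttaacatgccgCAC
Adamts4: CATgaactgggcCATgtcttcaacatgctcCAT
Adamts9: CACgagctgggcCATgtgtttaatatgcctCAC
The stretch of *Mmp2* lies in exon 8 at chr8:92839279-92839311 on the plus strand, and that of *Mmp14* in exon 5 at chr14:54437627-54437659 on the plus strand. In the 3 ADAMTS genes an intron interrupts it. It runs from exon 3 to exon 4 in *Adamts1* (chr16:85799191-85799545, minus strand) and in *Adamts4* (chr1:171253210-171253915, plus strand), and from exon 8 to exon 9 in *Adamts9* (chr6:92905285-92908493, minus strand). Of its 33 bases, 27 are the same in *Mmp2* and *Mmp14* and 28 in *Adamts1* and *Adamts9*, against 18 in *Mmp14* and *Adamts9*. Over whole transcripts, *Mmp2*, *Adamts1*, *Timp1*, *Timp2* and *Reck* shared no run of 50 bases, the length of the reads, with any other gene.

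The cells came from the ears of adult female C57Bl/6 mice, 12 to 26 weeks old by the labels, which name no allele and no treatment. The study's methods call them wild type, name the substrain C57BL/6 J and give a younger age range. Sorted CD31+/CD45-/Lyve1- cells were placed 1 per well in 4 plates of 384 wells and sequenced by Smart-seq2, and each of the 2 replicates has a plate A and a plate B. The design text names a pool of 6 mice, so the spread between single mice is not seen, and whether each replicate is its own pool is not stated. Reads on genes per plate were 31864976 to 74739095, with medians per well of 142086 or more in replicate 1 and of 42540 or less in replicate 2.

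Of 1536 wells, 701 were kept as BECs (338 of replicate 1, 363 of replicate 2), with under 100 CPM of each of 5 genes of other cell types, where CPM is a gene's count scaled to one common total of reads on genes per well. They were clustered without the 10 genes described here. The artery-like class had 48 wells (24 and 24 in the 2 replicates) with 16 of 18 artery markers raised, and the capillary-like class had 155 wells (124 and 31) with 12 of 13 capillary markers raised. In replicate 2 the summed capillary-like wells also held lymphatic markers. *Mmrn1* had 487 TMM-scaled CPM (0.83 in replicate 1), *Ccl21a* 147 (1.66) and *Pdpn* 104 (14.8), while *Prox1* had 1.36 (0.93). At the next higher resolution (0.8) the capillary-like cluster held 19 wells of replicate 2, and a cluster with lymphatic markers held 16. Values of capillary-like wells in replicate 2 carry that limit. The vein-like class had 340 wells (146 and 194) in 3 clusters, which carried the name with unequal strength. Vein-like cluster 1 (36 and 27 wells) had 13 of 15 vein markers raised and was led by the adhesion genes *Sele* and *Selp* and by *Ackr1*. Cluster 2 (60 and 118 wells) had 4 raised, and cluster 3 (50 and 49 wells) had 3. The remaining 158 wells were led by *Mmrn1*, held raised mural and lymphatic markers and were left unnamed. No 2 wells held identical counts.

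Per kilobase of exon, *Timp3* and *Timp2* were among the 3 highest members over all kept BEC wells in both replicates, while *Timp4* was so in replicate 1 only (167 CPM per kb, against 9.10 in replicate 2). As means of both replicates the order was as follows. *Timp3* had 105 ± 20.4 CPM per kb (SD, n = 2 replicates), *Timp4* 87.9 ± 111 and *Timp2* 65.2 ± 25.3. *Mmp2* stood at 34.0 ± 8.32 and *Adamts1* at 30.1 ± 9.19 CPM per kb. *Timp1* stood at 19.9 ± 1.41, *Adamts4* at 8.52 ± 7.28, *Mmp14* at 7.87 ± 6.82, *Adamts9* at 5.28 ± 2.81 and *Reck* at 1.94 ± 0.998 CPM per kb. Neighbours in this order differed by less than their spread from *Timp3* to *Timp2*, from *Mmp2* to *Adamts1* and from *Adamts4* to *Adamts9*. A read of any of the 5 inhibitors was present in 100% of kept wells of replicate 1 and 96.1% of replicate 2, and a read of any of the 5 proteases in 97.0% and 65.3%. After each well had been thinned to 20000 reads, which left out 1 and 69 shallower wells, these shares were 99.4% and 90.8% for inhibitors and 71.8% and 48.3% for proteases.

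The wells with the strongest venous identity had the highest mean protease levels. In vein-like cluster 1, the mean CPM of all 5 proteases was above that of the artery-like wells, the capillary-like wells and both other vein-like clusters, in both replicates. None of the 5 inhibitors had that pattern. Of 8659 genes with a read in at least 10% of the wells of these 5 groups in both replicates, among them 9 of the 10 members (all but *Reck*), 6.28% were highest in this cluster in both replicates. This is a description of clusters made from the same wells, and no test was made of it.

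**Figure D1:**
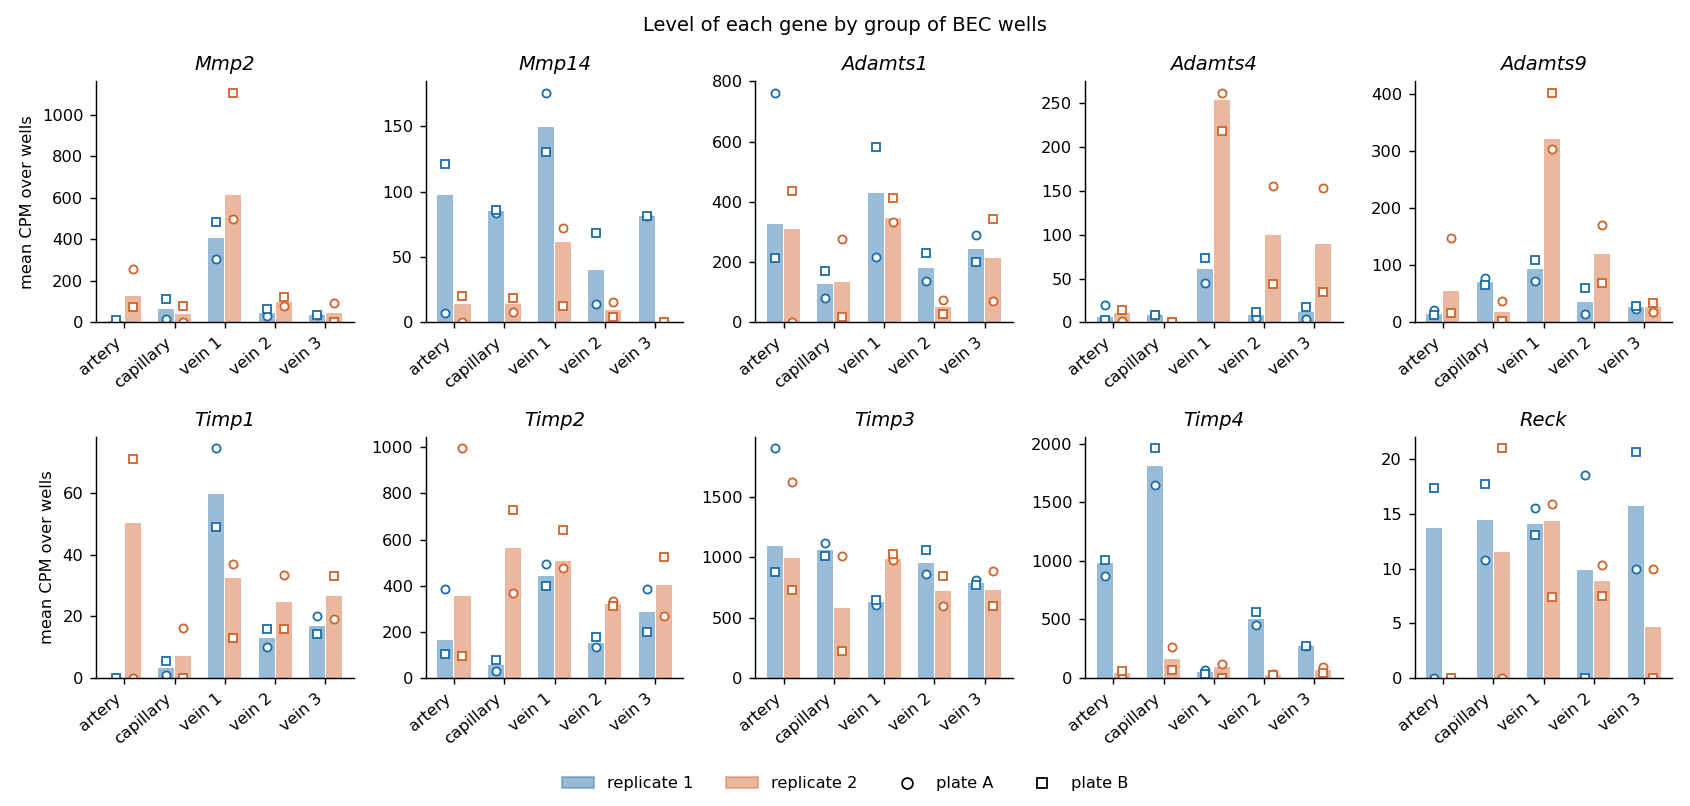
Mean CPM over wells (y axis, linear and starting at 0, with its own scale in each panel) of each gene in 5 groups of BEC wells (x axis; vein 1 to 3 are the vein-like clusters). Bars are replicates and open symbols are single plates, with no error bar; the 5 proteases are highest in vein 1 in both replicates, and Timp4 of replicate 1 reaches 1813 CPM in capillary-like wells.

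*Mmp2* had the largest ratio to the next group among the 5 proteases, in both replicates. Its mean was 408 CPM in replicate 1 and 612 CPM in replicate 2 in cluster 1. The artery-like wells had 8.74 and 126 CPM (59.3% of the second from a single well), the capillary-like wells 65.3 and 42.2, cluster 2 had 45.7 and 100.3, and cluster 3 had 36.7 and 44.3. Cluster 1 thus stood 6.25 and 4.86 times above the next group, and it was highest on all 4 plates, at 304, 483, 500 and 1106 CPM. *Mmp2* was read at 100 CPM or more in 55.6% (exact 95% binomial interval 38.1 to 72.1%) and 44.4% (25.5 to 64.7%) of its wells. In the other 4 groups that share lay between 0% and 8.33%. The intervals cover counting error only.

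The level was uneven within the cluster. In replicate 1 its wells ran from 0 to 2775 CPM with a median of 189, and in replicate 2 from 0 to 2231 CPM with a median of 5.67. Its wells were deeper, with medians of 245948 and 254512 reads against 129678 to 161521 in the artery-like and capillary-like wells. After thinning, *Mmp2* was read in 66.7% and 44.4% of wells of cluster 1 and in 3.57% to 20.0% of wells of the other groups. One of the 27 wells of cluster 1 in replicate 2 also passed the rule for stromal wells given below, and without it the mean was 564 CPM.

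**Figure D2:**
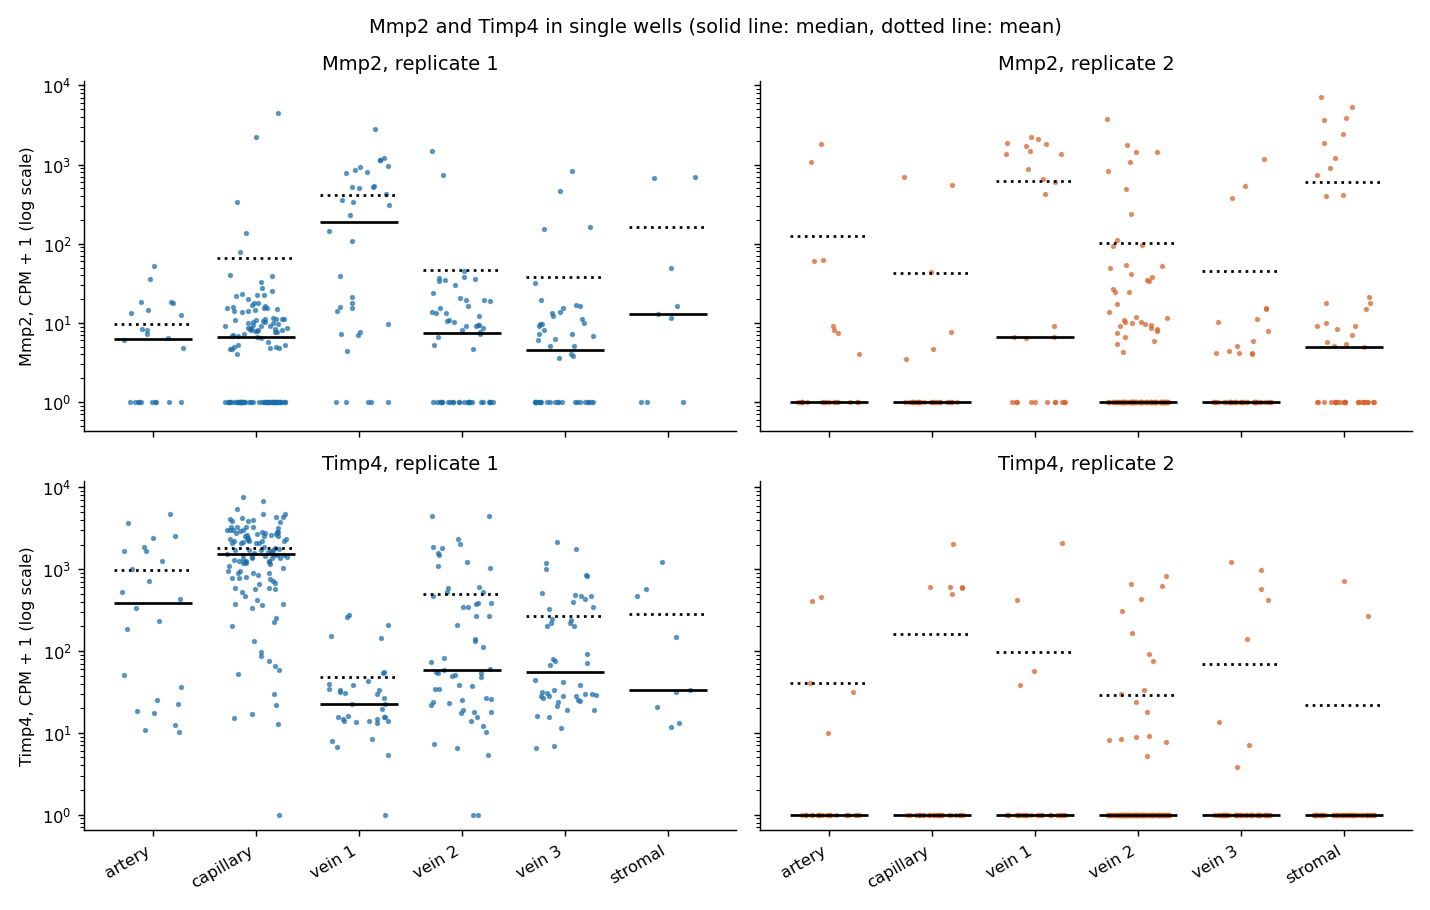
CPM + 1 on a log scale (y axis) of Mmp2 and Timp4 in single wells (points) by group and replicate, with stromal wells at the right. Solid lines are medians and dotted lines means; the mean of Mmp2 is highest in vein 1 among the BEC groups (612 CPM in replicate 2, beside 596 in stromal wells), and Timp4 is read in nearly every well of replicate 1 but in few of replicate 2.

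The enzyme that activates MMP2 had a weaker form of the pattern. *Mmp14* had 149 and 61.2 CPM in cluster 1, against 97.6 and 14.3 in artery-like, 84.8 and 13.8 in capillary-like, 39.7 and 9.83 in cluster 2 and 81.4 and 0.348 in cluster 3. It was highest in cluster 1 on 3 of 4 plates, and without the well that passed the stromal rule its mean there in replicate 2 was 38.5 CPM. *Mmp14* was read in 56.5% of all kept wells of replicate 1 and 12.4% of replicate 2, or 25.2% and 8.84% after thinning, so the replicates differ in it as a whole.

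The versican-cutting *Adamts1* was high in both cluster 1 and the artery-like wells. Cluster 1 had 428 and 347 CPM and the artery-like wells 327 and 309 CPM, a gap smaller than that between plates. On single plates the artery-like wells ran from 1.23 to 763 CPM, and cluster 1 was highest on 2 of 4 plates. The capillary-like wells had the lowest mean in replicate 1, at 127 CPM, and cluster 2 the lowest in replicate 2, at 51.1 CPM. In thinned wells *Adamts1* was read in 75.0% and 59.3% of wells of cluster 1, 50.0% and 16.7% of artery-like wells and 30.6% and 21.4% of capillary-like wells.

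*Adamts4*, an aggrecan-cutting enzyme induced by inflammatory signals in many cells, had 61.3 and 254 CPM in cluster 1. The artery-like wells had 6.24 and 10.4 CPM and the capillary-like wells 8.79 and 0, while cluster 2 had 8.02 and 99.4 and cluster 3 had 11.4 and 89.9. In replicate 2 cluster 1 thus stood 2.56 times above the next group, another vein-like cluster. In replicate 2, 0 of 31 capillary-like wells held a read, and the limit set by 3 wells of that number is 9.68%. Cluster 1 was highest on all 4 plates, but single wells weighed heavily, since the highest well of replicate 2 held 31.0% of its summed CPM. *Adamts9* had 93.7 and 322 CPM in cluster 1 against at most 71.4 and 120 in the other groups, and was highest there on 3 of 4 plates. In thinned wells *Adamts9* was read in 52.8% and 55.6% of wells of cluster 1 and in 10.7% to 29.8% elsewhere.

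The inhibitors lie on 5 chromosomes, *Timp1* at chrX:20870166-20874735 (plus strand), *Timp2* at chr11:118301069-118355740 (minus), *Timp3* at chr10:86300372-86349506 (plus), *Timp4* at chr6:115241892-115252205 (minus) and *Reck* at chr4:43875530-43944806 (plus). *Timp1* and *Timp2* were the inhibitors that went with cluster 1 in replicate 1. *Timp1* had 59.6 CPM there against at most 17.0 in the other groups, but in replicate 2 it had 32.5 CPM against 50.5 in artery-like wells. A single well gave 82.6% of that artery-like sum. *Timp2* had 440 and 506 CPM in cluster 1, and in replicate 2 the capillary-like wells were above it. Taken by share of thinned wells, cluster 1 was highest in both replicates for 8 of the 10 members, all but *Timp3* and *Timp4*. Of the 8659 genes, which do not include *Reck*, 27% were highest there by this measure.

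**Figure D3:**
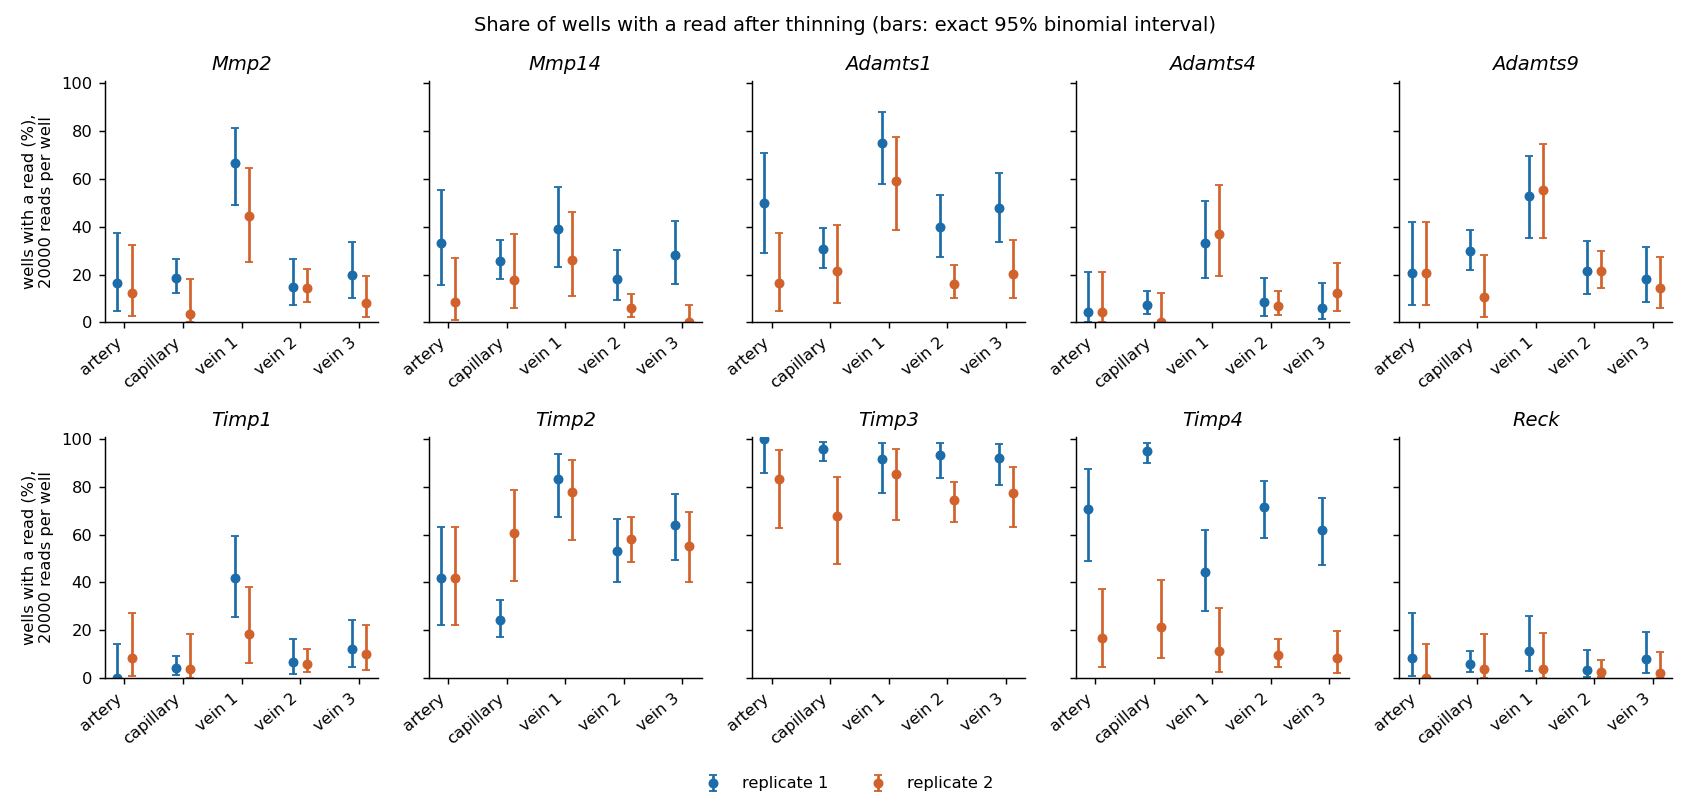
Share of wells with at least 1 read (y axis, percent) after thinning every well to 20000 reads, for each gene in 5 groups of BEC wells (x axis) and 2 replicates (colours). Bars are exact 95% binomial intervals for counting error; Mmp2 reaches 66.7% and 44.4% in vein 1, and Timp4 lies at 95.2% in capillary-like wells of replicate 1 and 21.4% in those of replicate 2.

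Genes that collagenase digestion is known to induce also differed between the clusters. Their summed mean level was 36469 and 37434 CPM in cluster 1, 46636 and 38569 in cluster 3, and 17707 to 20976 in the artery-like and capillary-like wells. Cluster 3 had more of these reads than cluster 1 in both replicates. Its proteases stood at 36.7 and 44.3 CPM (*Mmp2*), 81.4 and 0.348 (*Mmp14*), 242 and 215 (*Adamts1*), 11.4 and 89.9 (*Adamts4*) and 26.9 and 26.6 (*Adamts9*). Over single wells, correlations of log2(CPM + 1) with that sum were 0.284 and 0.215 for *Adamts1*, 0.0695 and 0.205 for *Adamts4*, 0.0551 and 0.204 for *Adamts9*, 0.116 and 0.0121 for *Mmp2* and -0.0400 and 0.00262 for *Mmp14*. These correlations are across wells that share a plate, a depth and a sort, and the part of digestion in the levels was not tested otherwise.

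*Timp4* differed widely between the replicates. Its mean was highest in capillary-like wells in both, at 1813 CPM in replicate 1 and 159 CPM in replicate 2. The artery-like wells had 981 and 39.3 CPM and the vein-like wells 311 and 47.6. In replicate 1 it was lowest in cluster 1, at 47.5 CPM, and cluster 2 had 503 and cluster 3 had 270. In replicate 2 cluster 1 had 95.4 CPM, of which a single well gave 80.1%.

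The replicates differed in how many wells held a *Timp4* read at all. In replicate 1 it was read in 98.5% of kept BEC wells, and in 100% of 9 stromal wells and 93.3% of 15 wells with lymphatic markers. In replicate 2 it was read in 14.0% of kept BEC wells, 4.26% of 47 stromal wells and 9.91% of 232 wells with lymphatic markers. A read of *Timp4* in replicate 1 therefore did not separate BECs from other cells. There, 100 CPM or more was reached in 90.3% of capillary-like wells (exact 95% interval 83.7 to 94.9%), 62.5% of artery-like (40.6 to 81.2%) and 35.6% of vein-like wells (27.9 to 44.0%), and in 44.4% of stromal wells (13.7 to 78.8%). These intervals cover counting error over wells of 1 replicate and compare no classes. Within the vein-like class the share was 13.9% in cluster 1, 45% in cluster 2 and 40% in cluster 3. In replicate 2 that level was reached in 19.4% of capillary-like, 8.33% of artery-like, 6.70% of vein-like and 4.26% of stromal wells.

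*Timp3*, the matrix-bound inhibitor, was read in 100% of kept wells of replicate 1 and 90.4% of replicate 2. Its mean was 1090 and 989 CPM in artery-like wells, 1061 and 580 in capillary-like wells and 818 and 760 in vein-like wells. Artery-like wells were highest in both replicates, but on single plates they ran from 728 to 1903 CPM, a range that holds the vein-like plates (738 to 843 CPM). The capillary-like plates ran from 226 to 1119 CPM.

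*Timp3* lies inside the neuronal gene *Syn3*, on the opposite strand, and their exons overlap by 1733 bases. Of the 50-base runs of *Timp3* transcripts, 21.4% are also found in another gene. Per well, *Syn3* had 346 and 280 CPM in kept BEC wells, and it was the gene whose level went most closely with *Timp3* (r = 0.827 over 338 wells and 0.782 over 363 wells). The counting is not stated to use strand. Whether reads from the overlap were given to either gene, to both or to neither is not stated, so the part of the overlap in each level is unknown. *Timp4* lies inside *Syn2* and *Timp1* inside *Syn1*, with 90 and 0 bases of shared exon, and *Syn1* had 0.655 and 0.524 CPM. *Adamts9* shares 1805 exon bases with 2 genes on the opposite strand, so its level carries the same limit.

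**Figure D4:**
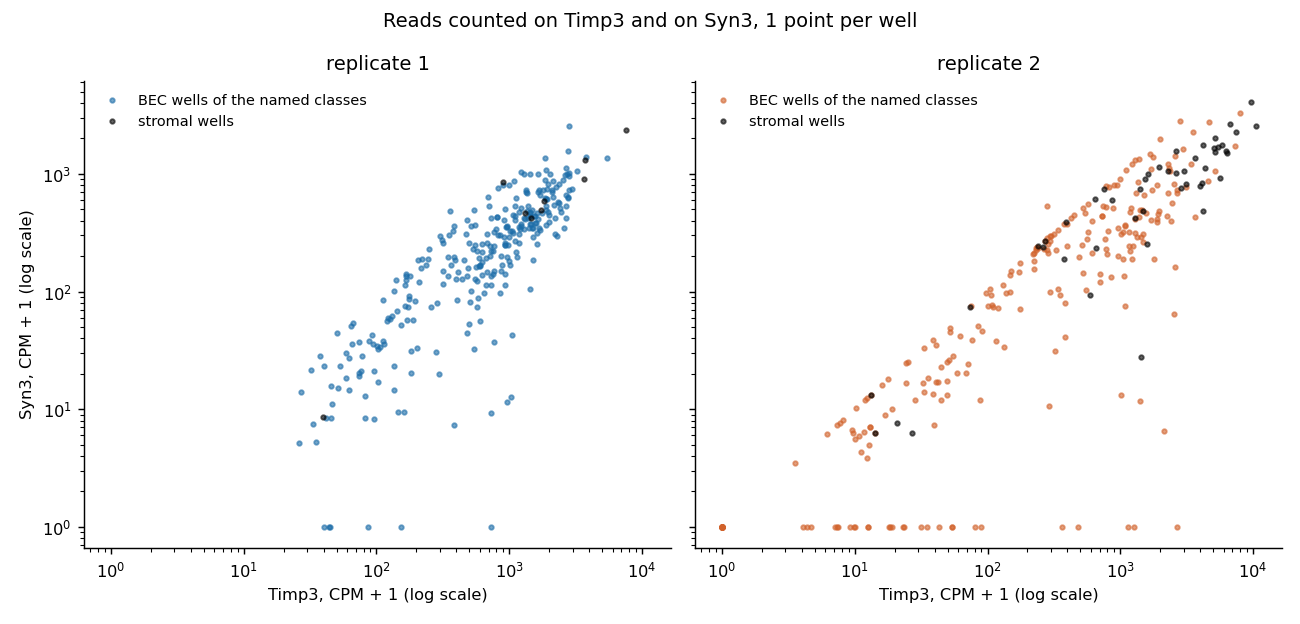
CPM + 1 of Timp3 (x axis) and of Syn3 (y axis), both on log scales, in single BEC wells of the named classes (coloured points) and stromal wells (black points), by replicate. The counts rise together in both replicates.

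*Timp2* changed its order between the replicates. In replicate 1 the vein-like wells had 269 CPM, the artery-like 163 and the capillary-like 55.8, and in replicate 2 the order was 369, 357 and 564. Wells with lymphatic markers had 797 and 839 CPM. Whether the lymphatic markers in the capillary-like wells of replicate 2 bear on this order was not tested. A well of the artery-like class in replicate 2 gave 54.4% of its sum. *Reck*, the member with the lowest level per kilobase over all kept wells, had 13.8 and 0 CPM in artery-like, 14.4 and 11.5 in capillary-like and 12.96 and 8.60 in vein-like wells. It was read in 12.1% and 3.03% of kept wells, and in 0 of 24 artery-like wells of replicate 2, for which the same limit of 3 wells is 12.5%.

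MMP14, TIMP2 and the MMP2 precursor meet on the cell surface, so wells with reads of all 3 genes were counted. There were 109 of 338 in replicate 1 (32.2%, exact interval 27.3 to 37.5%) and 17 of 363 in replicate 2 (4.68%, 2.75 to 7.39%). After thinning these shares were 4.45% and 1.70%, so both the share and the gap between replicates moved with depth.

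Summed counts per class and replicate were then compared with edgeR (quasi-likelihood test, replicate as block, 2 residual degrees of freedom). No gene passed an adjusted p of 0.05 among 15953 tested in any of the 4 class comparisons, so 0% were called and 0 of the 10 members. At an unadjusted p under 0.05 edgeR had 1183 genes and 2 members for artery-like wells against the other classes, 668 and 2 for capillary-like, 873 and 1 for vein-like, and 1069 and 1 for artery-like against vein-like. DESeq2 called 869, 381, 167 and 597 genes in these comparisons and limma called 0 in each, and neither called a member. The classes were clustered from the same wells, though without the members.

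The median log2 fold change of the members was -0.15 for artery-like wells, -0.56 for capillary-like, 0.96 for vein-like and -0.52 for artery-like against vein-like, beside -0.40, 0.10, 0.33 and -0.45 over all genes tested. *Adamts1* had the smallest p for artery-like wells, at 1.33 (SE 0.31, edgeR adjusted p = 0.634), and for capillary-like wells, at -1.49 (SE 0.34, edgeR adjusted p = 1). *Timp4* stood at 1.51 in capillary-like wells (SE 0.36, edgeR adjusted p = 1), at -1.58 in vein-like wells (SE 0.41, edgeR adjusted p = 0.896) and at 1.10 in artery-like against vein-like wells (SE 0.44, edgeR adjusted p = 0.664). *Timp3* had 0.62 in artery-like wells (SE 0.24, edgeR adjusted p = 0.634). With a non-BEC limit of 10 CPM in place of 100, *Timp4* in capillary-like wells was -0.077.

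When only cluster 1 stood for the vein-like class, a setting chosen after seeing the data, *Mmp2* was 3.29 above the other classes on the log2 scale (SE 1.12, edgeR adjusted p = 0.826). *Adamts4* was 4.04 above them (SE 1.65, edgeR adjusted p = 0.889) and *Adamts1* 1.05 (SE 0.34, edgeR adjusted p = 0.826). No member passed the threshold under this setting either. A p that misses the threshold with 2 replicates does not show that levels are alike.

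Stromal cells are the usual neighbours of vessels and a known source of matrix enzymes, and some had entered the sort. Wells with at least 3 mural or fibroblast markers at 300 CPM and under 100 CPM of *Pecam1* were set apart as stromal, 9 in replicate 1 and 47 in replicate 2. Of these, 35 had mural markers, 9 had fibroblast markers and 12 had both. The 6 wells of replicate 2 that were also kept as BECs were counted as stromal here.

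*Timp3* was higher in the stromal wells. Its TMM-scaled level was 1003 and 758 CPM in the summed BEC wells and 2517 and 2866 CPM in the stromal sums. The log2 fold change of BEC against stromal wells was -1.62 (SE 0.29, edgeR adjusted p = 3.87e-06). It was the only one of the 10 members called, where 2.85% of 17095 genes were called (232 higher and 256 lower in BEC wells). The stromal wells of mural type had 2624 and 2787 CPM of *Timp3* per well and the 9 fibroblast-marker wells 520 CPM. Wells with lymphatic markers had 2234 and 1782 CPM, or 2437 and 1848 CPM without those also kept as BECs. *Syn3*, which shares the overlap with *Timp3*, was lower in BEC wells too (-1.55, edgeR adjusted p = 0.0176). The call was lost without the replicate block (edgeR adjusted p = 0.203), with wells thinned to 20000 reads (edgeR adjusted p = 0.163) and in DESeq2 (adjusted p = 0.366), all in the same direction.

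**Figure D5:**
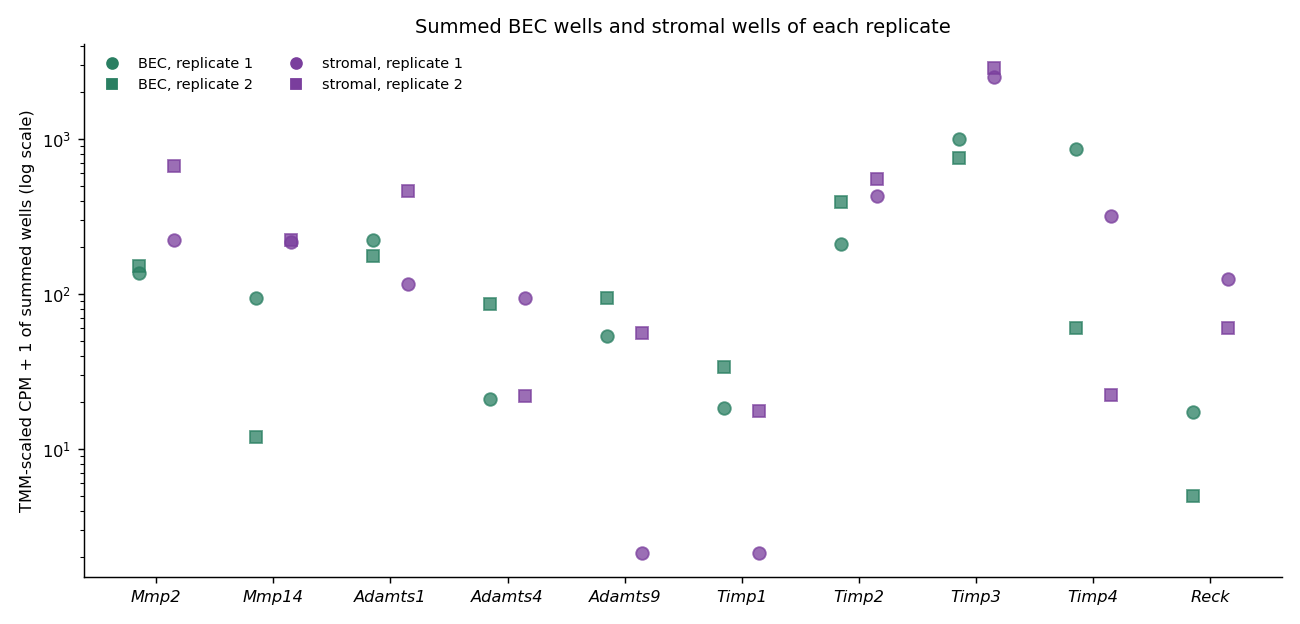
TMM-scaled CPM + 1 (y axis, log scale) of each gene (x axis) in summed BEC wells and summed stromal wells, 1 point per replicate, with no error bar. Timp3 is higher in stromal sums (2517 and 2866 against 1003 and 758 CPM).

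Among the proteases, *Mmp2* had 136 and 152 CPM in BEC sums and 222 and 669 in stromal sums (log2 fold change -1.43, SE 0.60, edgeR adjusted p = 0.331). *Mmp14* had 93.3 and 10.9 against 217 and 222 CPM (-2.78, SE 0.95, edgeR adjusted p = 0.109). Neither passed the threshold. The 9 fibroblast-marker wells of replicate 2 held a mean of 2152 CPM of *Mmp2*, 1140 CPM of *Timp2*, 651 CPM of *Adamts1*, 308 CPM of *Mmp14* and 169 CPM of *Reck* per well, each above the mean of every BEC class in that replicate. These means rest on few wells, since 1 well gave 54.7% of the *Adamts1* sum and 50.4% of the *Mmp14* sum, and the 4 wells of plate B had 51.3 CPM of *Adamts1* and 58.8 CPM of *Mmp14*.

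*Reck* had 16.2 and 3.997 CPM in BEC sums and 124 and 59.7 in stromal sums (log2 fold change -3.42, SE 1.51, edgeR adjusted p = 0.403), and DESeq2 called it lower in BEC wells (-3.59, adjusted p = 0.0318). One stromal well gave 98.9% of the stromal *Reck* level of replicate 1. *Timp4* had 867 and 59.8 CPM in BEC sums and 318 and 21.3 in stromal sums (1.47, SE 0.57, edgeR adjusted p = 0.229). It passed the threshold only with thinned wells (1.97, SE 0.63, edgeR adjusted p = 0.0483). The median over all genes tested was 0.92 and that of the members -0.49. A sum alone does not tell a smaller share of wells with a read from a lower level per well.

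The wider family and its substrates were read from lists of other genes. None passed the threshold in the 4 class comparisons. Of 21 other MMP genes, 6 had no read in any kept BEC well (*Mmp1a*, *Mmp1b*, *Mmp10*, *Mmp13*, *Mmp20* and *Mmp27*, named after their values were seen). Those with the most reads per kilobase were the membrane-bound *Mmp15*, at 73.8 and 42.7 CPM per well, and *Mmp19*, at 26.9 and 27.8 CPM. Of 16 other ADAMTS genes, *Adamts10* (29.6 and 59.7 CPM) and *Adamts7* (31.8 and 30.4 CPM) led. Of 7 ADAMTS-like genes, *Adamtsl4* (13.5 and 33.5 CPM) and *Adamtsl1* (1.38 and 41.2 CPM) did. Against stromal wells, 0 of 9 MMP genes, 0 of 12 ADAMTS genes and 0 of 6 ADAMTS-like genes tested passed.

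The ADAM family of membrane sheddases was uneven in level, with 4 of 9 genes at 10 CPM or more in both replicates. *Adam15* had 567 and 294 CPM per kept BEC well and *Adam10*, which cleaves Notch and VE-cadherin, 163 and 203 CPM. *Adam15* was higher in BEC than in stromal wells (log2 fold change 2.30, SE 0.61, edgeR adjusted p = 0.00867), and of 8 tested it was the 1 higher, while *Adam9* was the 1 lower (-3.02, edgeR adjusted p = 0.0121). In the list of activators and other inhibitors, *Cst3*, the secreted inhibitor of cysteine proteases, had 2184 and 1744 CPM. *Bsg*, known as an inducer of MMPs, had 1343 and 917 CPM.

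Of 16 activators and other inhibitors tested, 0 were higher and 3 lower in BEC than in stromal wells. Besides *Serpine2*, a serine protease inhibitor (-3.82, edgeR adjusted p = 2.44e-16), these were *Lrp1*, a receptor that takes up protease-inhibitor complexes (-6.51, SE 1.24, edgeR adjusted p = 1.67e-05), and the complement inhibitor *Serping1* (-5.01, SE 0.40, edgeR adjusted p = 8.15e-33). Of 20 substrates tested, 0 were higher and 5 lower, namely *Col1a2*, *Bgn*, *Col4a2* and the interstitial collagens *Col3a1* (-5.04, SE 0.51) and *Col1a1* (-4.08, SE 0.55), with edgeR adjusted p of 2.94e-20 and 5.74e-11. *Col1a2* and both of these collagens are among the markers that set stromal wells apart, so their direction is no finding. The basement membrane collagen *Col4a2* had 937 and 235 CPM per BEC well and was lower than in stromal wells (-1.18, SE 0.36, edgeR adjusted p = 0.0395), while *Col4a1* did not pass (-1.08, SE 0.38, edgeR adjusted p = 0.136).

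The genes whose levels over single wells went most closely with 8 members (*Timp1* and *Reck* were read in too few wells of replicate 2) were taken from 3924 genes, ranked by the lower of the correlations in the 2 replicates. For *Mmp2* these were the venous adhesion genes *Selp* (r = 0.424 and 0.367) and *Sele* (0.408 and 0.349), and then *Ehd4* (0.235 and 0.285). *Mmp14* was closest to *Mmp2* itself (0.168 and 0.175), then *Sod2* and *Rdx*. *Adamts1* was closest to *Nr4a1* (0.306 and 0.244), *Icam1* and *Ier3*, which are early response or adhesion genes. *Adamts4* was closest to *Dusp2* (0.274 and 0.242), *Arid5a* and *Bcr*, and *Adamts9* to *Icam1* (0.215 and 0.264), *Wdfy3* and *Gnai2*. *Timp2* was closest to *Tgfbr2* (0.280 and 0.263), *Ctnnal1* and *Gpcpd1*, and *Timp4* to *Sparc* (0.277 and 0.190), *Cavin1* and *Ablim3*. After *Syn3*, *Timp3* was closest to *M6pr* (0.161 and 0.141) and *Tmem173*. Except for *Timp3* and *Syn3*, these correlations are low, and they are given over wells of 1 plate pair each that share depth and sort.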

How the data were processed

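Single cells of mouse ear dermis were measured by Smart-seq2 in 4 plates. Per the submitters' processing notes, reads were handled with TopHat2 2.1.1, SAMtools 0.1.18 and Subread 1.4.6-p5 on mm10 (GRCm38), and the study's methods add that duplicated reads were removed. The authors deposited raw counts per gene and well without molecular identifiers, so intervals cover counting error only. Strand use and the annotation release are not given in the sources used here. The 92 spike-in sequences were left out. GENCODE vM21 named 46005 of 46517 identifiers.

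Wells needed 600 counts, 500 to 8000 genes, a read of 2 of 3 BEC genes and under 100 CPM of *Lyve1*, *Prox1*, *Ptprc*, *Pdgfrb* and *Kcnj8*. Doublets were not called otherwise. Leiden clusters (scanpy 1.11.5, leidenalg 0.10.2, resolution 0.6, 1000 variable genes, 15 components, 15 neighbours) left out 154 genes, the members among them. A cluster was named from at least 3 markers raised 1.25-fold.

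Counts were summed per class and replicate. Genes with 10 counts in 2 sums entered edgeR 4.0.16 (quasi-likelihood test, TMM scaling, Benjamini-Hochberg adjustment, threshold 0.05, residual degrees of freedom 2 for classes and 1 for stromal wells). The block follows the design, since wells of all classes were sorted into both plates of each replicate. Deviations of same-numbered sums correlated at 0.0808 to 0.129. DESeq2 1.42.0, limma 3.58.1 on log2(mean CPM + 1), other filters, single plates, thinned wells and other classes were alternatives. With replicate as a block, p-values rest on how far differences between groups vary between these 2 replicates, not on the spread between replicates itself. The code was run on simulated 4-fold changes with 1 dispersion for all genes. For artery-like wells it recovered 180 of 200 changes at a dispersion of 0.05, and 0 of 194 at 0.82, the common dispersion of the class sums. Against stromal wells it recovered 0 of 179 at 0.89, while the real sums gave 488 calls. The simulated setting is thus not that of these data. A missing call with 2 replicates says little.

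The members and lists were chosen with earlier results of these data known. Named besides the members are listed genes past the threshold and changed alike in each replicate (the 4 largest of a comparison), the 2 of each list with most CPM per kb, and the 3 closest genes of each member read in 10% of kept wells of both replicates. Members of a count of 5 or fewer (*Adam9*, *Serpine2*, *Col1a2*, *Bgn*) were named after their values were seen. Python 3.11.15 and R 4.3.3 were used. One overlap of a member with a neighbouring gene is not reported here.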

Additional observations from a re-analysis of the deposited data

Results flagged for a closer look

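Over the 4 plates, the mean of *Adamts4* in kept BEC wells was 108 CPM on plate A of replicate 2, against 10.1, 21.4 and 26.2 CPM on the other plates. This plate stood apart from the rest by Dixon's criterion. *Adamts9* stood apart in the same way on the same plate, at 171 CPM against 44.5, 53.9 and 51.2 CPM. Over both plates of replicate 2, the highest well held 26.1% of the summed CPM of *Adamts4* and 28.3% of that of *Adamts9*. The other 8 members were not set apart. Among groups of independent values, chance alone flags about 1 in 20. The 4 plates are 2 of each of 2 replicates that differ in depth, so that rate need not hold here.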

How the results depend on the processing

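No member was called in any of the 4 class comparisons under any setting with a test. Leaving out a replicate leaves no test. Against stromal wells 1 member was called under every setting with a test but that without the replicate block, which gave 0 called members and 0 called genes. The called member was *Timp3* except with thinned wells (*Timp4*) and in DESeq2 (*Reck*). Over all genes, 488 were called against stromal wells by edgeR, 1162 by DESeq2, 208 by limma, 114 on plate A only and 283 on plate B only. In the class comparisons edgeR called 0 genes, and 0 to 56 under the alternatives with a test other than DESeq2. DESeq2 size factors moved the median log2 fold change of all genes against stromal wells from 0.92 to 0.75. The number of members with the same highest class in both replicates was 6, and 5 to 7 under the alternatives, but the members and classes behind it changed. *Adamts1* was highest in artery-like wells, but in cluster 1 when that cluster stood for the vein-like class. With the limits of 10 and 300 CPM its highest class differed between the replicates. The same count over all genes was not made, so this count is no sign of stability. Of 30 mean levels, 13 moved by more than the spread between replicates with the 10 CPM limit, 7 with 300 CPM and 3 with thinning. The 10 CPM limit kept 247 wells, 18 of them of replicate 1. The log2 fold change of *Timp4* reversed to -0.077 in capillary-like wells with that limit and to -0.20 for artery-like against vein-like wells on plate A only. *Reck* reversed to 0.042 against stromal wells on plate A only. The causes were not tested. Leaving out a replicate moved *Mmp14* against stromal wells from -1.21 to -4.34, *Mmp2* from -0.71 to -2.14, *Timp3* from -1.33 to -1.92, *Timp4* in vein-like wells from -0.91 to -2.36 and artery-like against vein-like from 0.35 to 1.94. The fewest wells stood behind *Reck*, *Timp1* and *Adamts4*, read in 3.03%, 9.64% and 11.8% of kept wells of replicate 2.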
